A study of Mus musculus with 6 samples.

Results

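The 10 genes described here encode S100 calcium-binding proteins (S100a4, S100a6, S100a10 and S100a11), annexins (Anxa1, Anxa2, Anxa4, Anxa5 and Anxa6) and galectin-1 (Lgals1). They were taken by symbol from the 22064 genes that the expression tables list, and all 10 had values and were tested. Transcript levels were measured by RNA sequencing in CD8+ T cells from the spleens of BALB/c mice, which the study's methods give as female and 6 to 8 weeks old. The first group, called NET, was treated for 48 h with neutrophil extracellular traps (NETs), the meshes of chromatin and granule protein that neutrophils throw out on activation, at 10 μg/mL. The second group, control, was kept without NETs. Each group had 3 samples. The study's methods state that NETs were collected from neutrophils activated with phorbol 12-myristate 13-acetate (PMA) and rinsed from the culture well. For the sequenced cells they describe neither T cell stimulation nor an agent given to both groups. Their coculture protocol for spleen CD8+ T cells uses antibodies to CD3 and CD28. Whether it was used for the sequenced cells is not stated. Whether the 3 samples of a group were separate mice or cultures is not given in the sources used here, and the spread behind each p-value may therefore be technical.

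S100 proteins are small EF-hand proteins that bind calcium and then open a surface for partner proteins, among them the tails of annexins. Annexins attach to acidic phospholipids of membranes when calcium rises, and take part in membrane repair, vesicle traffic and the resolution of inflammation. Galectin-1 binds galactose-containing glycans on surface glycoproteins and, when secreted, can restrain or kill activated T cells. In mouse CD8+ T cells, transcripts of several of these genes are known to be higher in effector and memory cells than in naive cells.

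NETs did not move the 10 genes in 1 direction. S100a4 and Anxa1 were about 2-fold higher in NET samples, at 2.06-fold and 2.24-fold. Anxa2 was lower, at 0.622 of the control level, and S100a10 and Anxa6 were lower by less. S100a6, S100a11, Anxa4, Anxa5 and Lgals1 did not pass the test. At an edgeR adjusted p below 0.05 (quasi-likelihood test, Benjamini-Hochberg adjustment over the 12546 genes tested), 5 of the 10 members were called, in a comparison that called 44.6% of all genes tested. Of these, 2 were higher and 3 were lower with NETs, where 22.3% of all genes tested were higher and 22.3% were lower. Past a fold of 0.58 on the log2 scale in addition, 3 members were called, S100a4, Anxa1 and Anxa2, against 25.2% of all genes. The values of the NET and control samples did not overlap for 6 members, against 54.7% of all genes. The share of members called was thus close to that of all genes by each rule. The median log2 fold change was 0.11 over the 10 members and −0.01 over all genes tested.

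**Figure D1:**
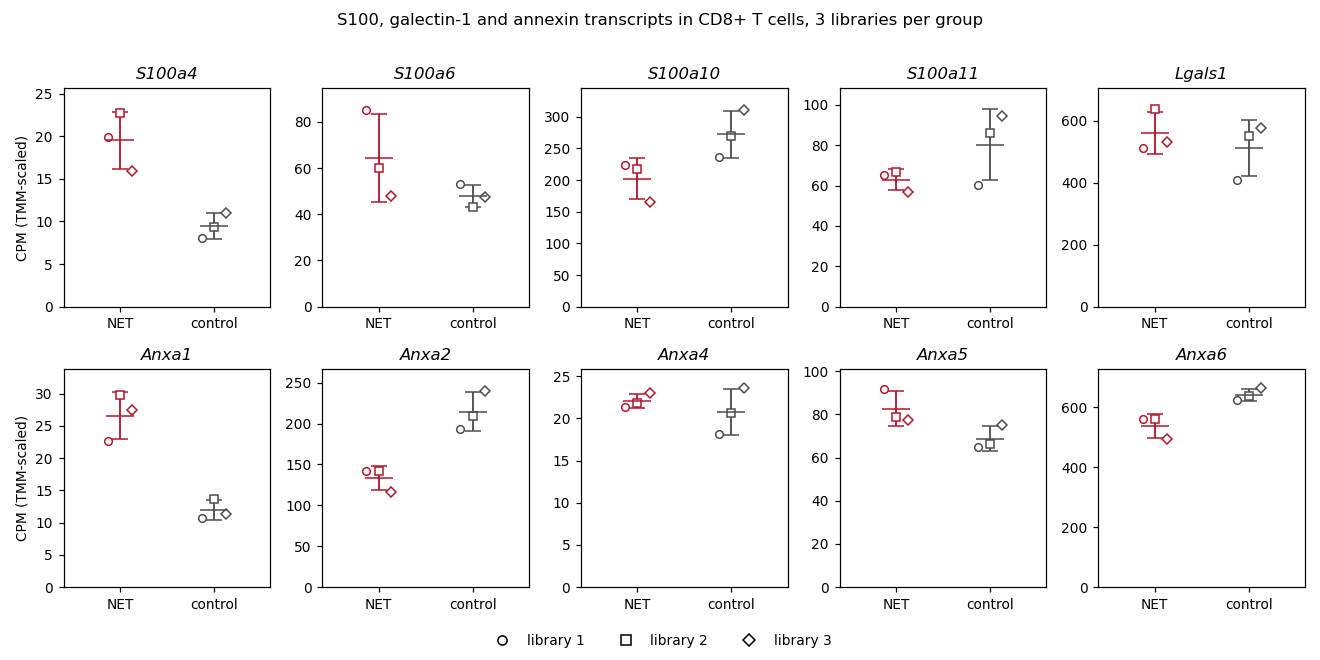
CPM values (counts scaled to a common library size by TMM) of the 10 members in each NET and control library, on axes that start at 0. Circles, squares and diamonds are libraries 1, 2 and 3, the long dash is the group mean and the bar is 1 SD (n = 3). The NET libraries of S100a4, Anxa1 and Anxa5 sit above all control libraries, and those of S100a10, Anxa2 and Anxa6 sit below them. Anxa5 was not called.

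The libraries held 18696355 to 19425700 estimated counts. On the first principal component, with 83.1% of the variance, the groups separated, and on the second, with 8.27%, both libraries numbered 1 stood apart from the others. The label of CD8+ T cells was checked against markers. Cd8a, which encodes the CD8 alpha chain, averaged 817 ± 51.2 CPM in NET samples and 1222 ± 85.7 CPM in control samples (SD, n = 3 each). Cd4 averaged 28.4 ± 6.09 CPM in NET samples and 46.3 ± 0.179 CPM in control samples. Of the 10 CD8 T cell markers with values, 8 were lower with NETs and none was higher, and the median of their log2 fold changes was −0.51. In bulk samples, fewer cells of a type and less RNA per cell cannot be told apart.

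S100a4 (gene 20198, chr3:90603770-90606045 on the plus strand, build GRCm38, which mm10 names) encodes a protein that binds non-muscle myosin and is linked to cell motility. It had 19.9, 22.7 and 15.9 CPM in NET samples 1 to 3, against 8.01, 9.38 and 11.05 CPM in control samples 1 to 3. Every NET sample was thus above every control sample. The log2 fold change was 1.04 ± 0.17 (SE; adjusted p = 0.000674). The values rested on 303 to 439 estimated counts per NET library and 154 to 207 per control library. The annotation places another coding model, Gm42674, over S100a4 on the same strand, so reads could be shared between them.

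S100a6 (calcyclin, gene 20200, chr3:90612894-90614414, plus strand) lies 6.8 kb beyond S100a4 and encodes a binder of the ubiquitin-pathway protein CACYBP. Its level was 85.2, 60.2 and 47.8 CPM in NET samples 1 to 3, against 53.1, 43.3 and 47.7 CPM in control samples 1 to 3. NET sample 1 was well above the other 5, NET sample 3 lay at the control level, and the groups overlapped. The log2 fold change of 0.42 ± 0.18 had a 95% interval of 0.02 to 0.83 and an adjusted p of 0.0846. Without NET sample 3 it was 0.60, and the gene passed the test at an adjusted p of 0.0167 in edgeR.

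S100a10 (p11, gene 20194, chr3:93555117-93564645, plus strand) encodes the partner that joins 2 annexin A2 chains into a heterotetramer and, unlike its relatives, is held in the open form without calcium. It had 224, 218 and 165 CPM in NET samples 1 to 3, against 236, 269 and 311 CPM in control samples 1 to 3. The groups did not overlap, but NET sample 1 and control sample 1 were close. The gene was lower with NETs by a log2 fold change of −0.43 ± 0.14 (adjusted p = 0.0289). This call was lost without NET sample 2, NET sample 3, control sample 2 or control sample 3, with adjusted p-values of 0.0551, 0.0840, 0.0634 and 0.141 in edgeR.

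S100a11 (calgizzarin, gene 20195, chr3:93520496-93526288, plus strand) encodes a partner of annexin A1. Its values were 65.3, 66.8 and 56.9 CPM in NET samples 1 to 3, against 60.4, 85.8 and 94.3 CPM in control samples 1 to 3. Control sample 1 lay among the NET samples. The log2 fold change was −0.35 ± 0.15, with a 95% interval of −0.69 to −0.01 and an adjusted p of 0.0868. Without control sample 1 the gene was lower at −0.52 (edgeR adjusted p = 0.00283). The annotation names 1 pseudogene of S100a11, with which reads could be shared.

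Anxa1 (gene 16952, chr19:20373434-20390671 on the minus strand) encodes annexin A1, known for resolving inflammation through formyl peptide receptors. It had the largest fold change of the 10 genes. The NET samples 1 to 3 had 22.6, 29.8 and 27.4 CPM, and the control samples 1 to 3 had 10.7, 13.7 and 11.3 CPM. All NET samples were above all control samples, with 439 to 576 estimated counts per NET library and 206 to 252 per control library. The log2 fold change was 1.16 ± 0.14 (adjusted p = 0.000115).

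Anxa2 (gene 12306, chr9:69453683-69491792, plus strand) encodes annexin A2, which binds actin and plasminogen activator components at the cell surface. It had 142, 142 and 116 CPM in NET samples 1 to 3, against 194, 210 and 240 CPM in control samples 1 to 3. The highest NET sample stayed below the lowest control sample. The fold change was −0.68 ± 0.12 on the log2 scale (adjusted p = 0.000949), opposite in sign to that of Anxa1.

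Anxa4 (gene 11746, chr6:86736840-86793634, minus strand) encodes an annexin studied at epithelial membranes. It had 21.3, 21.9 and 23.0 CPM in NET samples 1 to 3, against 18.2, 20.7 and 23.6 CPM in control samples 1 to 3. The groups overlapped, and the log2 fold change of 0.08 ± 0.12 had a 95% interval of −0.18 to 0.35 (adjusted p = 0.592).

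Anxa5 (gene 11747, chr3:36448923-36475887, minus strand) encodes annexin A5, the phosphatidylserine binder that serves as an apoptosis stain. Its level was 91.8, 78.8 and 77.2 CPM in NET samples 1 to 3, against 64.8, 66.1 and 75.3 CPM in control samples 1 to 3. Although the groups did not overlap, the lowest NET sample and the highest control sample were close. The log2 fold change of 0.27 ± 0.10 had a 95% interval of 0.04 to 0.49 and an adjusted p of 0.0579. The gene passed the test on FPKM values (limma on log2(FPKM + 1), adjusted p = 0.0445) and without NET sample 3 (edgeR, 0.0496).

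Anxa6 (gene 11749, chr11:54978953-55033471, minus strand) encodes a large annexin with a doubled core that binds membranes and regulates signalling at them. NET samples 1 to 3 had 560.1, 559.7 and 492 CPM, and control samples 1 to 3 had 624, 637 and 663 CPM. The groups did not overlap. The difference was small, with a log2 fold change of −0.26 ± 0.09 (adjusted p = 0.0427). The call was lost when any library other than control sample 1 was left out, with adjusted p-values of 0.0538 to 0.172 in edgeR, and with upper quartile scaling (0.0899).

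Lgals1 (gene 16852, chr15:78926725-78930465, plus strand) had 513, 639 and 534 CPM in NET samples 1 to 3, against 408, 551 and 576 CPM in control samples 1 to 3. The groups overlapped, and control sample 1 was the lowest of the 6. Its log2 fold change was 0.14 ± 0.14, with a 95% interval of −0.18 to 0.45 (adjusted p = 0.466). Without control sample 1 it was −0.01. The annotation names 2 pseudogenes of Lgals1, with which reads could be shared.

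**Figure D2:**
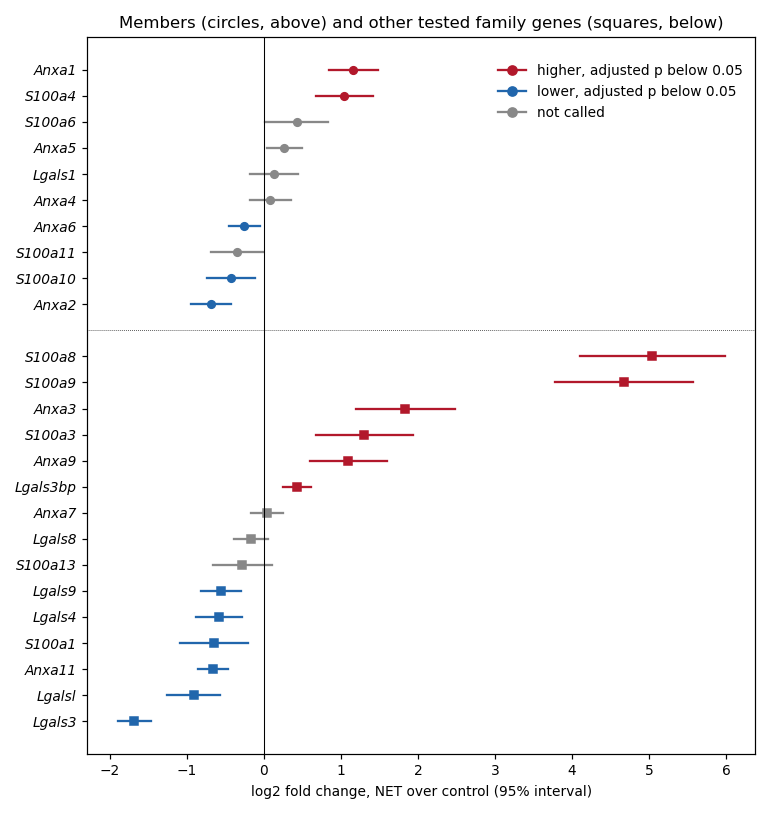
Log2 fold changes, NET over control, with 95% intervals, of the 10 members (circles, upper block) and of the 15 other tested genes of the S100, annexin and galectin lists (squares, lower block). Red marks genes higher with NETs, blue genes lower and grey genes not called at an adjusted p of 0.05. S100a8 and S100a9 lie farthest to the right, at 5.04 and 4.67, and Lgals3 farthest to the left, at −1.68.

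Levels can be compared between genes only per length, for which FPKM values (fragment counts scaled for transcript length and library size) were used. Lgals1 was the most abundant member, at 749 ± 83.6 FPKM in NET samples and 672 ± 109 FPKM in control samples (SD, n = 3 each). S100a10 came next, at 336 ± 53.4 FPKM in NET samples and 446 ± 55.7 FPKM in control samples. Anxa6, S100a11, Anxa2, S100a6, Anxa5 and S100a4 followed in this order in both groups. The least abundant members exchanged places. Anxa1 had 19.8 ± 2.56 FPKM in NET samples and 8.73 ± 1.08 FPKM in control samples, whereas Anxa4 had 11.5 ± 0.582 FPKM in NET samples and 10.5 ± 1.21 FPKM in control samples. The ranges of Anxa1 and Anxa4 overlapped in control samples and did not overlap in NET samples. Other neighbours in the order with overlapping ranges were Anxa2 and S100a6, and Anxa5 and S100a4, in NET samples, and S100a11 and Anxa2 in control samples. The 10 genes together held 0.172 ± 0.014% of the estimated counts in NET libraries and 0.186 ± 0.016% in control libraries, and these ranges overlapped.

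**Figure D3:**
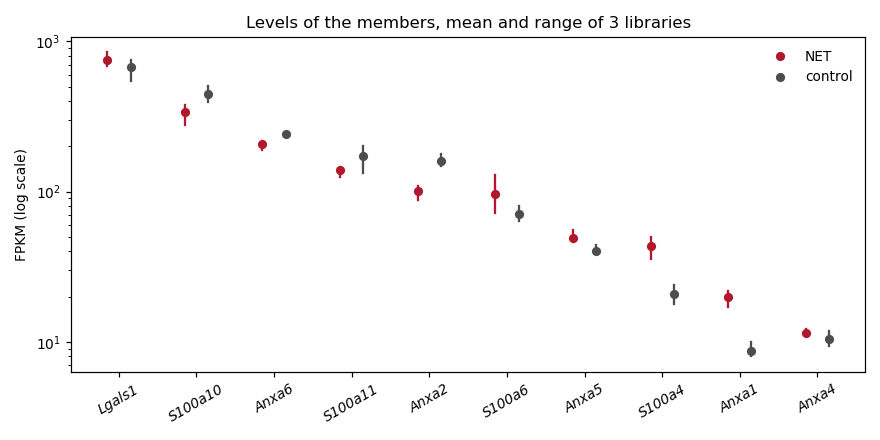
FPKM values of the members on a log axis, ordered by their mean in NET samples, with the mean (point) and the range (line) of 3 libraries for NET (left of each pair) and control (right). Levels run from 749 FPKM for Lgals1 to 11.5 FPKM for Anxa4 in NET samples, and S100a4 and Anxa1 show the widest gaps between the groups.

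Ratios between members known as partners or neighbours were taken within each sample. S100a10 over Anxa2, the pair of the heterotetramer, was 3.46, 3.38 and 3.14 as a ratio of FPKM values in NET samples 1 to 3, against 2.68, 2.83 and 2.86 in control samples 1 to 3. Both genes were lower with NETs, Anxa2 by more, so the ratio was higher in all NET samples than in all control samples. For S100a11 over Anxa1, the other known pair, the ratio averaged 7.09 ± 1.27 in NET samples and 20.0 ± 4.15 in control samples (SD, n = 3 each). The ratio of Anxa1 to Anxa2 averaged 0.199 ± 0.0391 in NET samples and 0.0551 ± 0.00888 in control samples. Between the neighbouring genes S100a6 and S100a4 it averaged 2.23 ± 0.577 in NET samples and 3.49 ± 0.851 in control samples. None of these 4 ratios overlapped between the groups, though S100a6 over S100a4 nearly did, at 2.88 in NET sample 1 and 2.90 in control sample 3. Each ratio holds at least 1 gene already called different, so its separation adds no evidence apart from those calls. No test was run on these ratios, and an exact permutation test of 3 against 3 samples cannot go below p = 0.10.

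Ahnak encodes a giant scaffold protein that binds the annexin A2 and S100A10 complex under the plasma membrane. It had 193, 222 and 347 CPM in NET samples 1 to 3, against 645, 786 and 814 CPM in control samples 1 to 3. Transcripts of all 3 parts of that complex were thus lower with NETs, Ahnak by the most, with a log2 fold change of −1.56 ± 0.20 (adjusted p = 0.000154).

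**Figure D4:**
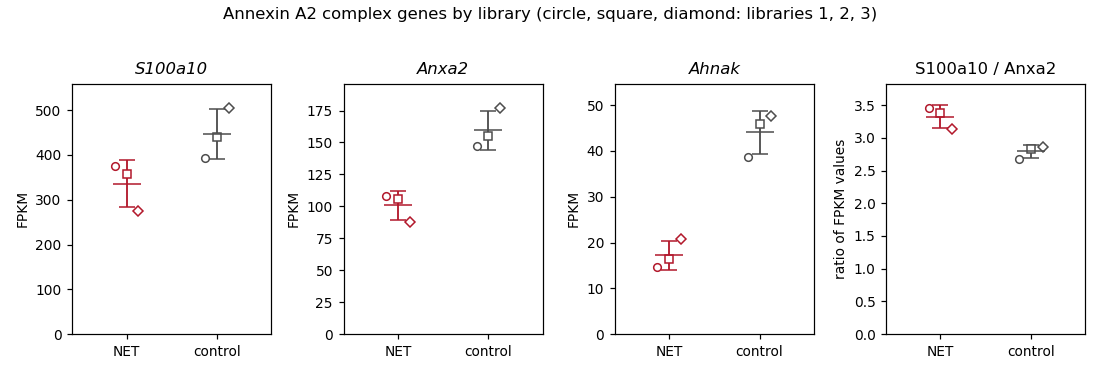
FPKM values of S100a10, Anxa2 and Ahnak and the ratio of S100a10 to Anxa2 in each NET and control library, on axes that start at 0. Points are libraries, dashes are group means and bars are 1 SD (n = 3). For each gene all NET libraries lie below all control libraries, while the ratio is higher in the NET libraries, at 3.14 to 3.46 against 2.68 to 2.86.

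Of 21 tested genes for binding partners and receptors of S100 proteins and annexins, 7 were higher and 6 were lower with NETs, with a median log2 fold change of 0.08. For this and the later lists, the shares over all genes tested were 22.3% higher and 22.3% lower. Myh9, the non-muscle myosin heavy chain that S100A4 binds, averaged 758 ± 81.9 CPM in NET samples and 1450 ± 190 CPM in control samples (SD, n = 3 each), a log2 fold change of −0.94 ± 0.12 (adjusted p = 0.000184). Prkca, encoding protein kinase C alpha, a kinase that phosphorylates annexins, was lower, at 65.2 ± 8.99 CPM in NET samples and 130 ± 5.15 CPM in control samples. Capn2, which encodes the large subunit of the calcium-activated protease m-calpain, was higher at 0.69 ± 0.08. Cacybp, the S100A6 partner, was higher at 0.31 ± 0.09. The receptors of annexin A1 were rare in these libraries and were chosen for mention after their values were seen. Fpr1 averaged 1.58 ± 0.573 CPM in NET samples and 0.141 ± 0.0807 CPM in control samples, and Fpr2 averaged 7.11 ± 2.11 CPM in NET samples and 3.22 ± 0.411 CPM in control samples. Both were called higher, with adjusted p-values of 0.000349 and 0.00314 in edgeR.

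Galectin-1 itself showed no called difference, while genes of its ligands and of the glycans it reads moved both ways. Of 18 tested, 6 were higher and 6 were lower, with a median log2 fold change of −0.01. Cd7, a T cell glycoprotein bound by galectin-1, had 0.979, 0.982 and 0.788 CPM in NET samples 1 to 3, against 24.1, 29.8 and 32.8 CPM in control samples 1 to 3, a log2 fold change of −4.97 ± 0.19 (adjusted p = 7.62e-08). The groups were far apart. Ptprc and Spn, encoding the galectin-1 ligands CD45 and CD43, were also lower, at −0.84 ± 0.13 and −0.75 ± 0.09, and were chosen for mention after their values were seen. St6gal1, the sialyltransferase whose product masks galectin-1 sites, was higher at 1.43 ± 0.11. Mgat5, the enzyme that makes branched N-glycans carrying galectin ligands, was higher at 1.42 ± 0.15. Cd69, an early activation receptor, was higher at 1.46 ± 0.12.

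Other genes of the same families were counted from fixed family lists. Of 5 other S100 genes tested, 3 were higher and 1 was lower. S100a8 and S100a9, whose products form calprotectin, the abundant calcium-binding complex of neutrophils, showed the largest fold changes of these 5. S100a8 had 3.81, 4.81 and 4.26 CPM in NET samples 1 to 3, against 0.156, 0 and 0.214 CPM in control samples 1 to 3, or 74 to 93 counts per NET library and 0 to 4 per control library. S100a9 had 2.42, 2.48 and 3.73 CPM in NET samples 1 to 3, against 0.156, 0.0542 and 0.107 CPM in control samples 1 to 3. The fitted log2 fold changes were 5.04 ± 0.42 and 4.67 ± 0.40. In NET samples S100a8 and S100a9 averaged 12.5 and 6.08 FPKM. The lowest of the 4 S100 members, S100a4, averaged 43.3 FPKM there. S100a3 was higher at 1.31 ± 0.28, but on only 22 to 27 counts per NET library and 8 to 11 per control library. S100a1 was lower at −0.65 ± 0.20 (adjusted p = 0.0217). S100a1 lost its call in DESeq2 (adjusted p = 0.0544) and, in edgeR, without NET sample 1 (0.0803), control sample 2 (0.0705), control sample 3 (0.0742) or both libraries numbered 1 (0.0545).

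Among 4 other annexins tested, Anxa3 was higher at 1.84 ± 0.29 and Anxa9 at 1.10 ± 0.22, both from control levels near 1 CPM. Anxa11, which links membranes to RNA granules in neurons, was lower, at 58.8 ± 3.41 CPM in NET samples and 92.9 ± 5.03 CPM in control samples (SD, n = 3 each). Its log2 fold change was −0.66 ± 0.09 (adjusted p = 0.000226). Anxa7 did not pass, with 108 ± 5.22 CPM in NET samples and 106 ± 8.55 CPM in control samples.

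Of 6 other tested genes in the galectin list, 4 were lower and 1 was higher. Lgals3, encoding galectin-3, which forms lattices on branched N-glycans, had 64.4, 65.8 and 56.0 CPM in NET samples 1 to 3, against 197, 192 and 209 CPM in control samples 1 to 3. It was lower in all NET samples, with a log2 fold change of −1.68 ± 0.10 (adjusted p = 7.42e-07). Lgals9, encoding galectin-9, Lgals4 and the galectin-like Lgalsl were also lower, at −0.56 ± 0.12, −0.58 ± 0.13 and −0.91 ± 0.16. Lgals3bp, which encodes a secreted glycoprotein that galectins bind and is not itself a galectin, was higher at 0.43 ± 0.08. Lgals8 did not pass, at −0.17 ± 0.10.

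On chromosome 3 lie 13 S100 genes in the RefSeq annotation, and their results followed no single direction along it. The first stretch holds 11 of them in 184.7 kb (chr3:90511034-90695721). From its start, S100a1 was lower, S100a13 was not called, and S100a14 and S100a16 were too low to test. Next came S100a3 and S100a4, both higher, then S100a5, too low to test, S100a6, not called, and S100a7a, too low to test. S100a8 and S100a9, both higher, close the stretch. S100a11 follows after a gap of 2.82 Mb and S100a10 another 28.8 kb on. Every called gene between S100a3 and S100a9 was higher, and the fitted changes of S100a11 and S100a10 were negative.

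Since S100a4 and Anxa1 differed from Anxa2 in direction, and S100a4 from its neighbour S100a6 in its call, the 100 bases before the start sites of these 4 genes are shown, read 5′ to 3′ on the gene's strand from RefSeq (GRCm38.p6). Capitals mark matches, on either strand, to TATAAA (the TATA box), TGANTCA (the site of AP-1, the Fos and Jun factor) and GGGCGG (the GC box).
S100a4 (chr3:90603670-90603769, plus): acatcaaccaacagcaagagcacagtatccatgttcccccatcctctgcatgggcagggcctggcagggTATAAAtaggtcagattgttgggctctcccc
Anxa1 (chr19:20390672-20390771, minus): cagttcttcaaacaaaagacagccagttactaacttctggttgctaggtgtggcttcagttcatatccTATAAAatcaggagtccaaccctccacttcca
Anxa2 (chr9:69453583-69453682, plus): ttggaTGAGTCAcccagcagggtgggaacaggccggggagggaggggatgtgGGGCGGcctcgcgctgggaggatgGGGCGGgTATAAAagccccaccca
S100a6 (chr3:90612794-90612893, plus): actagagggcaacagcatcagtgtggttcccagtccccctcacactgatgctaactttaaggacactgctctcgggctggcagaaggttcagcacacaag

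RefSeq promoter windows, from 250 bases before to 50 bases after the start, were matched for 7 of the 10 genes. They were found for S100a4, S100a6, S100a11, Anxa1, Anxa2, Anxa4 (with 2 start sites) and Anxa5, and not for S100a10, Anxa6 and Lgals1. TATAAA was present in 3 of the 8 windows, those of S100a4, Anxa1 and Anxa2, and in 13.6% of 32851 promoter windows of the same length. It began 31 bases before the start in S100a4, 32 before in Anxa1 and 17 before in Anxa2. The 2 members that were higher and the 1 with a window that was lower thus shared this match. TGANTCA was found once in Anxa2 and 2 times in S100a11, and in 7.81% of all windows. GGGCGG was found 3 times each in Anxa2 and S100a11 and once in 1 window of Anxa4, and in 35.7% of all windows. GGGANTTTC, a form of the NF-kappa B site that was also searched, was found in 1 window of Anxa4 and in 1.11% of all. No 2 of these matches overlapped. These are matches of letters, not sites shown to be bound.

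The members were set beside fixed lists of other genes that T cells use for the same structures. Of 27 tested genes tied to effector and memory T cells, 11 were higher and 8 were lower, and the median of their log2 fold changes was 0.25. Among all genes tested, 22.3% were higher and 22.3% were lower. Lmna, encoding the nuclear lamins A and C, had 285, 154 and 181 CPM in NET samples 1 to 3, against 5.36, 3.74 and 3.15 CPM in control samples 1 to 3. Its log2 fold change was 5.66 ± 0.28 (adjusted p = 3.63e-07). Id2, a transcriptional regulator of effector T cells, was higher at 2.35 ± 0.11, and Capg, an actin-capping protein gene, at 1.76 ± 0.10. Itgb7, an integrin chain gene, was listed at values identical to those of Bcl2 in all 6 samples, so its value (−2.53) could not be assigned to either gene. It is nevertheless counted among the 8 lower genes and in the median. This list also holds Ahnak, given above, which was lower at −1.56 ± 0.20. Lmna, Id2, Capg and Itgb7 were named for their small adjusted p-values, so they do not stand for the whole list.

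For the actin cytoskeleton, to which several S100 proteins and annexins bind, 3 of 24 tested genes were higher and 6 were lower, with a median of −0.15. Flna, the actin crosslinker filamin A, was lower at −0.76 ± 0.11, Twf2 (twinfilin 2) at −0.73 ± 0.11 and Zyx (zyxin) at −0.56 ± 0.10, whereas the myosin light chain gene Myl12a was higher at 0.54 ± 0.09. For membrane repair, 4 of 16 tested genes were higher and 2 were lower, with a median of 0.00. Ehd2, a membrane-shaping ATPase, had 66.9, 58.4 and 73.1 CPM in NET samples 1 to 3, against 1.14, 1.73 and 1.71 CPM in control samples 1 to 3. It was higher at 5.43 ± 0.17 on the log2 scale (adjusted p = 1.98e-08). Ehd1 and Chmp4b, an ESCRT-III subunit gene, were higher at 0.69 ± 0.10 and 0.75 ± 0.15, and Ano6, the phospholipid scramblase gene, was lower at −0.32 ± 0.09. The call of Ano6 was lost without NET sample 1, NET sample 2, control sample 2 or control sample 3, at edgeR adjusted p-values of 0.0505 to 0.0716.

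Marker lists of other cell types did not share 1 direction. S100a4 and Anxa1 are also expressed by myeloid cells. Of 9 tested neutrophil markers 6 were higher and none was lower, and the list's summed level was 42.0 to 68.3 CPM in NET libraries and 21.7 to 25.5 CPM in control libraries. S100a8 and S100a9 belong to that list. Camp, which encodes the cathelicidin of neutrophil granules, was at 0 in all control libraries. In NET libraries it had only 6, 4 and 4 counts, and it was too low to test. The granule genes Elane, Ltf and Ngp were also too low to test, and their groups overlapped. Lcn2, Mmp8 and Mpo, of the same list, were called higher. Their log2 fold changes were 5.35 ± 0.80, 3.79 ± 0.36 and 0.56 ± 0.13. Prtn3 was tested and not called. Ly6g and Retnlg had no values. Of 9 tested macrophage and monocyte markers 6 were higher and 1 was lower, with sums of 70.4 to 80.1 CPM in NET libraries and 45.3 to 69.8 CPM in control libraries. Csf1r, the receptor that defines them, averaged 3.81 ± 0.582 CPM in NET samples and 2.86 ± 1.12 CPM in control samples and was not called. Among 12 B cell markers 11 were higher and none was lower, with sums of 150 to 244 CPM in NET libraries and 35.1 to 45.6 CPM in control libraries. Ms4a1, which encodes the surface protein CD20, averaged 24.4 ± 7.56 CPM in NET samples and 4.91 ± 1.24 CPM in control samples (SD, n = 3 each). Of 7 tested plasma cell markers 6 were higher and none was lower, with sums of 677 to 839 CPM in NET libraries and 516 to 533 CPM in control libraries. Irf4 and Xbp1 made up most of these sums. They averaged 411 and 238 CPM in NET samples, and 307 and 177 CPM in control samples. The summed levels of 4 other lists were lower in every NET library than in every control library. Dendritic cell markers, with 3 higher and 2 lower of 6 tested, summed to 120 to 129 CPM in NET libraries and 249.2 to 269.2 CPM in control libraries. Most of that sum was Ccr7, which averaged 87.3 CPM in NET samples and 239 CPM in control samples. Xcr1 and Batf3, of the same list, were higher with NETs. They averaged 10.0 and 15.8 CPM in NET samples, and 1.43 and 3.57 CPM in control samples. Mast cell and basophil markers, with 1 higher and 2 lower of 6, summed to 83.6 to 97.5 CPM in NET libraries and 179 to 209 CPM in control libraries. Kit alone averaged 33.9 CPM in NET samples and 140 CPM in control samples. Stromal and endothelial markers, with none higher and 1 lower of 7, summed to 34.3 to 61.5 CPM in NET libraries and 81.3 to 117 CPM in control libraries. The lower gene, Pecam1, averaged 36.5 CPM in NET samples and 91.9 CPM in control samples, most of that sum. Sums that rest on so few genes do not measure a cell type. CD4 T cell markers, with 1 higher and 3 lower of 4, summed to 65.9 to 79.8 CPM in NET libraries and 81.4 to 92.3 CPM in control libraries. For NK cell markers, none of 3 tested was called, and the sums overlapped, at 172 to 234 CPM in NET libraries and 215 to 363 CPM in control libraries. Nearly all of these sums was Eomes and Gzma. They averaged 92.2 and 102 CPM in NET samples, and 107 and 166 CPM in control samples. Of 4 tested erythroid and platelet markers 1 was higher and none was lower, and those sums overlapped too, at 20.1 to 30.3 CPM in NET libraries and 20.0 to 22.1 CPM in control libraries. The part of these cells in the results for S100a4, Anxa1, S100a8 and S100a9 was not tested.

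By likeness of pattern to Anxa1, the member with the largest fold change, 7428 genes with a mean of at least 20 CPM were searched over the 6 samples. Nampt, encoding an enzyme of NAD synthesis, was closest, with a Pearson r of 0.999 of log2 CPM. Dimt1 (0.998) and Arrb2 (0.997) followed, and then Cers2 and Mrps2 (0.995 each). The 6 points share the division into groups, and 960 genes had an r over 0.9, so these names describe the libraries and nothing further.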

How the data were processed

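The authors deposited 2 tables for the 6 libraries, estimated counts per gene without scaling between libraries and FPKM values, which the authors scaled for transcript length and library size. Libraries were poly(A)-selected, strand-marked with dUTP and read as paired ends, and the build was mm10. For the aligner, counter, annotation and use of strand, the sources used here give nothing. Of the count values, 31.6% were whole within 0.005. Genes blank in all 6 samples (6459) were treated as missing.

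Counts were rounded, filtered with filterByExpr, scaled by TMM and tested with the quasi-likelihood test of edgeR 4.0.16 in R 4.3.3, two-sided, with group as the only term and Benjamini-Hochberg adjustment over 12546 genes. The study's methods name DESeq2 and a log2 fold of 0.58. DESeq2 1.42.0, limma 3.58.1 on log2(FPKM + 1) and log2(FPKM + 0.1), limma-voom, other scalings and filters, a replicate block, and fits without single libraries or both libraries numbered 1 were alternatives.

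The members and lists were chosen with earlier results of these data known. Genes were named by rule: all members, every tested S100, annexin and galectin family gene, defining markers, the 4 smallest adjusted p-values per list with at least 10 CPM, and the 5 genes most like the member with the largest fold change. Cacybp, Fpr1, Fpr2, Ptprc, Spn, Gcnt1, Lamp1, Camp, Elane, Ltf, Ngp, Lcn2, Mmp8, Prtn3, Irf4, Eomes and Gzma were outside it, chosen with their values in view. Not every gene taken by the rule is described. Values of chi-square per degree of freedom between replicates were 3.05 to 27.0, so no library was taken as a repeat of another.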

Additional observations from a re-analysis of the deposited data

How the results depend on the processing

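S100a4, Anxa1 and Anxa2 were called in the same direction under all 18 alternatives, and Anxa4 and Lgals1 under none. S100a10 was called under 14 and Anxa6 under 11. Anxa6 was also lost with upper quartile scaling (adjusted p = 0.0899) and with a minimum of 1 CPM in 3 libraries (0.0516). The number of members changed was 3 to 6 when 1 library was left out, that of members higher 2 to 4 and that of members lower 1 to 4. Only Anxa1, S100a4 and Anxa2 were called without NET replicate 2, control replicate 2 or control replicate 3. The members' median log2 fold change was −0.0073 to 0.22 over these fits, with its lowest value without control replicate 1 and its highest without control replicate 3, and 0.038 without both libraries numbered 1, where 6 members were called. Without control replicate 1, Anxa4 and Lgals1 changed sign, to −0.0076 and −0.0070, and so did Anxa7, to −0.032. The highest values of these genes, without control replicate 3, were 0.20, 0.24 and 0.082. Anxa7 was at −0.029 without both libraries numbered 1. The members' share of the library was 0.375% for NET and 0.408% for control when taken from summed FPKM values. The cause of these changes was not tested.

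With the replicate number as a block, 8 members were called, 4 higher and 4 lower, with S100a6, S100a11 and Anxa5 added. Deviations of same-numbered libraries from their group means had correlations of 0.51, 0.19 and 0.09. Both libraries numbered 1 thus shared deviations, and NET replicate 1 was at −0.40 and −0.31 with control replicates 2 and 3. The numbers 2 and 3 did not pair in this way, since NET replicate 2 correlated best with control replicate 3 (0.26). The main fit held no term for the replicate number. Over the other named genes and alternatives, 1131 results kept their call, 14 lost it, 5 gained one and 2 changed sign. S100a4 rested on estimated counts of 154 to 207 in control libraries, and whether these limit its precision was not tested.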
